A study of Mus musculus with 12 samples.

Results

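Intracellular cobalamin handling comprises the proteins that receive cobalamin (Cbl, vitamin B12) after it leaves the lysosome, convert it to its cofactor forms and use it. The 7 genes described here are Mmachc, Mmadhc, Mmaa, Mmab, Mut, Mtr and Mtrr. They were chosen by name, matched through Ensembl identifiers to symbols of the GENCODE M21 annotation, where methylmalonyl-CoA mutase is listed as Mut. They are 7 of 46078 genes in the count files, and all 7 passed the filter on low counts that kept 15823 genes for testing.

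The data are 12 RNA-seq libraries, 4 groups of 3, made from epithelium scraped from the proximal ileum of male C57BL/6 mice. The mice were gavaged with sesame oil alone (vehicle) or with 3, 10 or 30 µg/kg TCDD in the same oil. TCDD, a dioxin, is a ligand of the AhR (aryl hydrocarbon receptor). The 7 gavages, 4 days apart, began at 28 days of age, and tissue was taken at 56 days of age. All groups shared the strain, sex and oil. The scrapings were homogenised whole, so each library mixes the cells of the epithelium with whatever lay next to it. The comparisons ask whether Cbl handling within the epithelium changed with dose in a study concerned with Cbl loss under TCDD.

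Cbl enters the cytosol bound for a chaperone, MMACHC, which strips the upper ligand from the cobalt. MMADHC, which is not an enzyme, then directs the vitamin either to the cytosol or to the mitochondrion. In the mitochondrion the adenosyltransferase MMAB makes adenosylcobalamin, the G protein MMAA guards its transfer, and the mutase MUT uses it to turn methylmalonyl-CoA into succinyl-CoA, the last step from propionyl-CoA to succinyl-CoA. In the cytosol, methionine synthase (MTR) carries methylcobalamin and remethylates homocysteine, and the reductase MTRR restores MTR when its cobalt has been oxidised. Inherited loss of these genes causes methylmalonic aciduria, homocystinuria or both.

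The start regions of 3 members are shown, that of Mmab because it was the 1 gene called, and those of Mtrr and Mmaa because they hold GCGTG, the core of the dioxin response element to which the AhR binds. Each window is 300 bases, from 250 before to 50 after a RefSeq start on GRCm38.p6, and 5 of the 7 genes matched such an entry, with 7 windows in all. No sequence is printed for Mmadhc and Mut. In the Mmab window, capitals mark CCAAT on either strand, a motif chosen after the letters were seen. In the Mtrr and Mmaa windows, capitals mark GCGTG on either strand. Where a gene had more than 1 window, the one nearest to the annotated start is shown.

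Mmab, chr5:114443978-114444277, minus strand: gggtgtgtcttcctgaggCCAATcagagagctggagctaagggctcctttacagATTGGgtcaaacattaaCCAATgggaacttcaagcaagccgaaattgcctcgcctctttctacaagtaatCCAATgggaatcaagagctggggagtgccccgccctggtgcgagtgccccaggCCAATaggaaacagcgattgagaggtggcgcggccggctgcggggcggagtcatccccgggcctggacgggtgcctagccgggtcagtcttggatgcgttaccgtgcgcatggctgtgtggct

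Mtrr, chr13:68582120-68582419, minus strand: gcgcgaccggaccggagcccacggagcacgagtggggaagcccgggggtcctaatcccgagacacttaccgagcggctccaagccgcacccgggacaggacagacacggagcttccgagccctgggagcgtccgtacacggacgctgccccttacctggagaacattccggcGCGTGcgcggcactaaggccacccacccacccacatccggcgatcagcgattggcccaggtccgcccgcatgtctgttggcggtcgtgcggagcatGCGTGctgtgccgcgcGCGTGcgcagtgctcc

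Mmaa, chr8:79294912-79295211, minus strand: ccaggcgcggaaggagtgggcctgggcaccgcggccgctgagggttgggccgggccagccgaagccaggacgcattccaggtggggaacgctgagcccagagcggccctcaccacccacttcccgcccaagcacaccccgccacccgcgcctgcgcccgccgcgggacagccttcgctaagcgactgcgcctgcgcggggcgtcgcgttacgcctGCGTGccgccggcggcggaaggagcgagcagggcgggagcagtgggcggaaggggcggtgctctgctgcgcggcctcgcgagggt

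GCGTG, searched on both strands, occurred in at least 1 of the windows of 2 members, with 3 matches in the Mtrr window and 1 in the Mmaa window, and in 32.4% of all 32851 promoter windows of that length. At least 3 matches occurred in 3.91% of windows. The Mmab window held CCAAT or its reverse complement 5 times. CCAAT occurred in 37.4% of windows, and 0.271% held it 5 or more times, a count that includes the overlapping window of its neighbour Mvk. CCGCCC, a GC box, was present in all 5 matched members and in 35.7% of windows. CACCCCA, the central letters of a sterol response element, was in 0 of the 5 and in 7.6% of windows. The motifs do not contain one another. A match describes letters and not a bound site, and the absence of one refers to these windows alone.

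Sequencing depth was 11695887 to 22180274 counts in genes per library, and 3 counts, taken as the floor of detection, equalled 0.139 to 0.267 CPM, which covers counting error only. Cyp1a1, the standard AhR target, differed from vehicle by 1.74 on the log2 scale at 3 µg/kg (SE 0.46, adjusted p = 0.208 by edgeR's quasi-likelihood test with Benjamini-Hochberg adjustment over all genes tested), 5.54 at 10 µg/kg (SE 0.53, adjusted p = 0.000222) and 7.01 at 30 µg/kg (SE 0.57, adjusted p = 2.31e-05). The 9 enterocyte markers summed to 15970 to 16640 CPM in vehicle, 14760 to 21130 at 3 µg/kg and 15550 to 16560 at 10 µg/kg. At 30 µg/kg they summed to 16980 to 21860 CPM, above all vehicle libraries. Among the 9 markers, Fabp6, the ileal bile acid binding protein, had 508, 556 and 390 counts at 3 µg/kg and 0 to 5 in every other library. Slc10a2, the ileal bile acid transporter, had 93 to 218 counts at 3 µg/kg and 8 to 51 elsewhere. These genes were singled out after their values were seen. Both genes are known to be highest in the distal ileum. The 3 µg/kg libraries stood apart in these genes. The main Mmab results, the member calls at 10 and 30 µg/kg and the Cubn call at 30 µg/kg are therefore also given with that group left out. Other results keep that group. No label says that the samples come from separate animals, so p-values measure the spread between samples.

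Mmab was the 1 member called by edgeR against vehicle, at 30 µg/kg, where 3.97% of all genes tested were called. Its level went from 6.28 ± 0.382 CPM in the vehicle group (the count scaled for library size, mean ± SD, n = 3) to 11.1 ± 2.08 in the group given 30 µg/kg, a fitted rise of 1.77-fold. The mutase it supplies, Mut, and the other mitochondrial partner, Mmaa, were not called at any dose, nor were the cytosolic pair Mtr and Mtrr or the entry genes Mmachc and Mmadhc. Calls required a change of at least 1.5-fold together with an adjusted p below 0.05. That of Mmab was kept in 2 of 6 fits that left out a compared library. In bulk RNA, fewer cells of a type and less RNA per cell cannot be told apart, and the same holds for more.

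Per unit of exon length, the entry gene Mmadhc and the mutase gene Mut had the most RNA. In vehicle, Mmadhc stood at 31.9 ± 1.14 TPM (CPM divided by merged exon length and rescaled, mean ± SD, n = 3) and Mut at 28.0 ± 1.53. The mitochondrial genes Mmab and Mmaa stood at 4.95 ± 0.314 and 4.66 ± 0.397, and Mmachc at 4.34 ± 1.05. The cytosolic pair came last, Mtrr at 2.21 ± 0.821 and Mtr at 1.99 ± 0.274. In that order, the libraries of Mmab and Mmaa overlapped, as did those of Mmaa and Mmachc and of Mtrr and Mtr. The steps from Mmadhc to Mut, from Mut to Mmab (5.66-fold) and from Mmachc to Mtrr (1.97-fold) showed no overlap. Mut was at 14.3 ± 2.35 times the level of methionine synthase, the other enzyme that uses Cbl. Mmadhc was at 7.65 ± 1.96 times the level of Mmachc, the chaperone that acts before it.

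**Figure D1:**
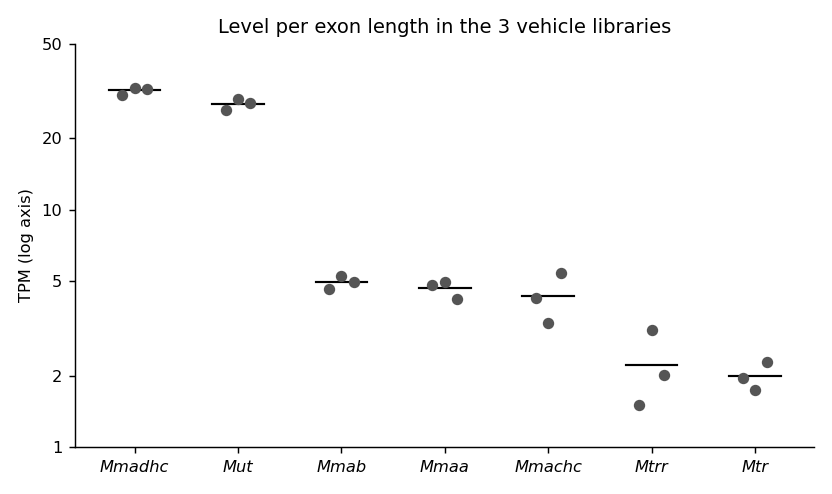
Level of each gene per exon length in the 3 vehicle libraries, in TPM on a log axis; points are libraries and lines are means. Mmadhc and Mut lie between 26.4 and 32.7 TPM, the other 5 genes between 1.51 and 5.43.

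Mmachc (chr4:116702279-116708406, minus strand) encodes the chaperone that first handles Cbl. It stood at 3.27, 2.55 and 4.20 CPM in vehicle, at 2.49, 3.33 and 2.64 at 3 µg/kg, at 2.74, 3.48 and 3.86 at 10 µg/kg, and 30 µg/kg gave 2.91, 5.07 and 3.89. The groups overlapped at every dose, and 1 library of 30 µg/kg lay above all 3 of vehicle. The log2 change was −0.24 (95% interval −0.80 to 0.33) at 3 µg/kg, 0.01 (−0.55 to 0.57) at 10 µg/kg and 0.23 (−0.33 to 0.78) at 30 µg/kg. It had 33 to 80 counts per library. A 1.5-fold change in either direction lay outside the interval at 10 µg/kg alone. Its known regulators Hcfc1, Thap11 and Zfp143, 3 of 3 tested, were not called by edgeR at any dose (0 with unadjusted p under 0.05, 0 called by DESeq2 or limma-voom), with changes between −0.22 and 0.09.

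Mmadhc (chr2:50279881-50296801, minus strand) encodes the adaptor that sorts Cbl between compartments. It stood at 21.3, 22.6 and 22.7 CPM in vehicle, 25.1, 26.8 and 26.0 at 3 µg/kg and 28.0, 25.4 and 31.7 at 10 µg/kg. The 30 µg/kg libraries gave 26.6, 24.4 and 24.3. In this scale all 9 dosed libraries lay above all 3 of vehicle, and the highest was at 10 µg/kg, while in TPM those of 30 µg/kg overlapped vehicle, at 32.6 ± 2.31 against 31.9 ± 1.14. The log2 changes were 0.23 (SE 0.10, edgeR adjusted p = 0.402), 0.36 (SE 0.10, adjusted p = 0.117) and 0.18 (SE 0.10, adjusted p = 0.2999), and none was called. Each of the 3 intervals stayed inside 1.5-fold, the widest reach being 0.56 at 10 µg/kg. The 3 comparisons share the same vehicle libraries, which at 21.3 to 22.7 CPM lay close together.

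Mmaa (chr8:79263598-79294937, minus strand), the G protein that chaperones the mutase, stood at 9.98, 10.3 and 8.83 CPM in vehicle. It stood at 12.3, 8.82 and 9.75 at 3 µg/kg, at 13.25, 10.2 and 11.1 at 10 µg/kg and at 11.8, 10.4 and 9.96 at 30 µg/kg. Each dose overlapped vehicle. The log2 changes of 0.08 (95% interval −0.25 to 0.41), 0.24 (−0.09 to 0.58) and 0.15 (−0.18 to 0.48) lay within 1.5-fold at all 3 doses.

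Mmab (chr5:114431034-114444060, minus strand), the adenosyltransferase, stood at 5.87, 6.62 and 6.36 CPM in vehicle, 6.34, 9.87 and 8.10 at 3 µg/kg and 9.22, 9.50 and 10.9 at 10 µg/kg. With 30 µg/kg it stood at 13.2, 9.06 and 11.005. The vehicle libraries were the tightest group. One library of 3 µg/kg lay among them, and all 6 libraries of 10 and 30 µg/kg lay above them. In TPM, which is not TMM scaled, Mmab was at 4.95 ± 0.314 in vehicle. It was at 7.01 ± 1.94, 8.42 ± 0.945 and 7.93 ± 1.69 at 3, 10 and 30 µg/kg, so the highest TPM mean was at 10 µg/kg. Against vehicle, 3 µg/kg gave a difference in log2 CPM of 0.37 (SE 0.18, adjusted p = 0.464 by edgeR), 10 µg/kg one of 0.65 (SE 0.18, adjusted p = 0.124) and 30 µg/kg one of 0.83 (SE 0.18, 95% interval 0.44 to 1.21, adjusted p = 0.0170). Over the whole dose range the fitted change was 0.83 (SE 0.17, adjusted p = 0.0119), and the test of any difference among doses gave an adjusted p of 0.0462.

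**Figure D2:**
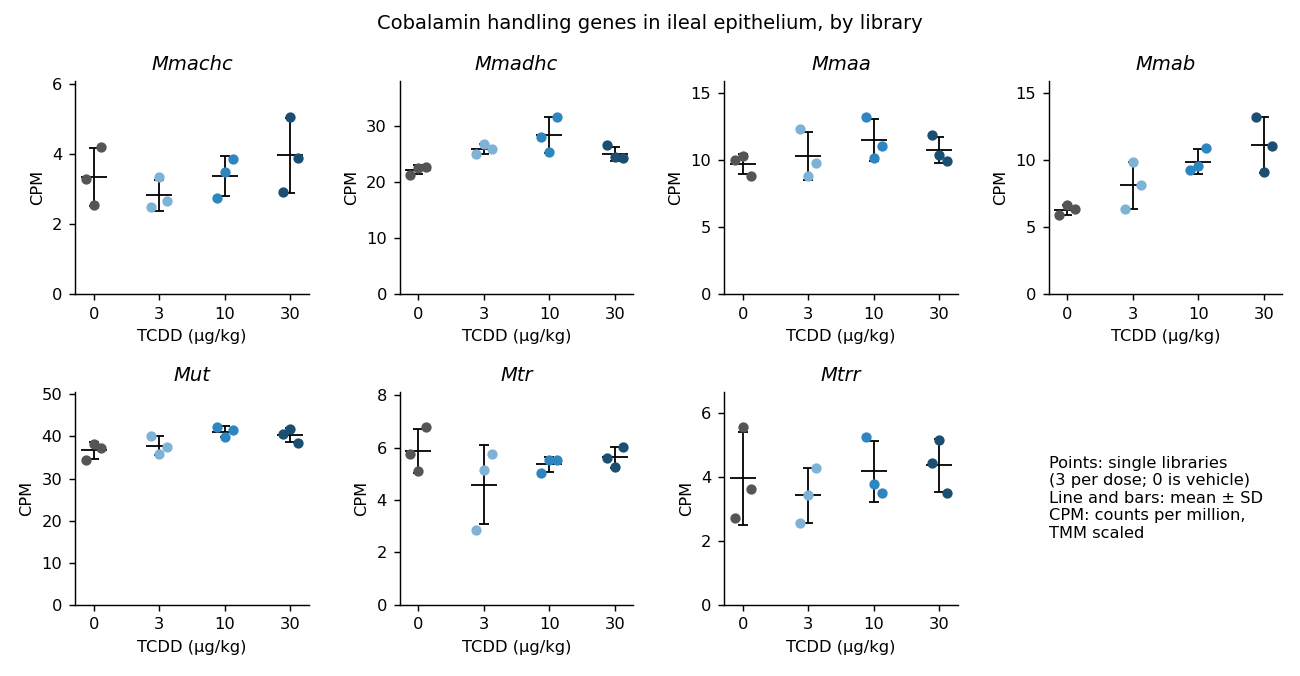
TMM-scaled CPM of the 7 genes in each of the 12 libraries, by TCDD dose (0 is vehicle); points are libraries, lines and bars are mean ± SD. Mmab rises from 5.87 to 6.62 CPM in vehicle to 9.06 to 13.2 at 30 µg/kg, while the groups of Mmachc, Mmaa, Mtr and Mtrr overlap at every dose.

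A rank test that does not use the count model gave Mmab a Jonckheere-Terpstra statistic of 46 of 54, the number of library pairs from different doses in which the higher dose had the higher level. Its exact permutation p over 369600 arrangements was 0.00597 (two-sided), and 0.121 after adjustment over all genes. Mut had 43 of 54 (exact p = 0.0246, adjusted 0.232), and the other 5 genes 27 to 37. The test called 0 members after adjustment, against 1.89% of all genes, and 2 of 7 at an unadjusted p under 0.05, against 13.3%. These values used TMM-scaled CPM. With scaling by total counts only, the exact permutation p of Mmab was 0.0159 (0.205 adjusted over all genes). Doses of 10 and 30 µg/kg could not be told apart for Mmab, since the log2 difference between them was 0.17 with a 95% interval of −0.21 to 0.56. Its difference from 3 to 30 µg/kg was 0.46 (0.07 to 0.84, edgeR adjusted p = 0.127).

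The call of Mmab at 30 µg/kg held in 11 of 11 other settings of scaling, filter, tool, covariate or groups, with log2 changes of 0.81 to 0.84 and adjusted p of 0.00111 to 0.0418. It was less stable to the loss of a library. Of 6 fits that left out a vehicle or a 30 µg/kg library, 2 kept the call. Without vehicle replicate 1, 2 or 3 the log2 change was 0.79, 0.87 or 0.84 with edgeR adjusted p of 0.050002, 0.0531 and 0.0570, the first just above the threshold. Without 30 µg/kg replicate 1, the library with 13.2 CPM, it was 0.68 (adjusted p = 0.0765), and the change over the dose range, 0.74, was no longer called (adjusted p = 0.0556). With the 3 µg/kg group left out, a setting chosen after seeing the data, the values were 0.84 at 30 µg/kg (adjusted p = 0.00927) and 0.86 over the range (adjusted p = 0.0136), and the exact permutation p of the dose order was 0.0214 (0.224 adjusted over all genes). The members called were then 0 at 10 µg/kg and 1, Mmab, at 30 µg/kg.

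**Figure D3:**
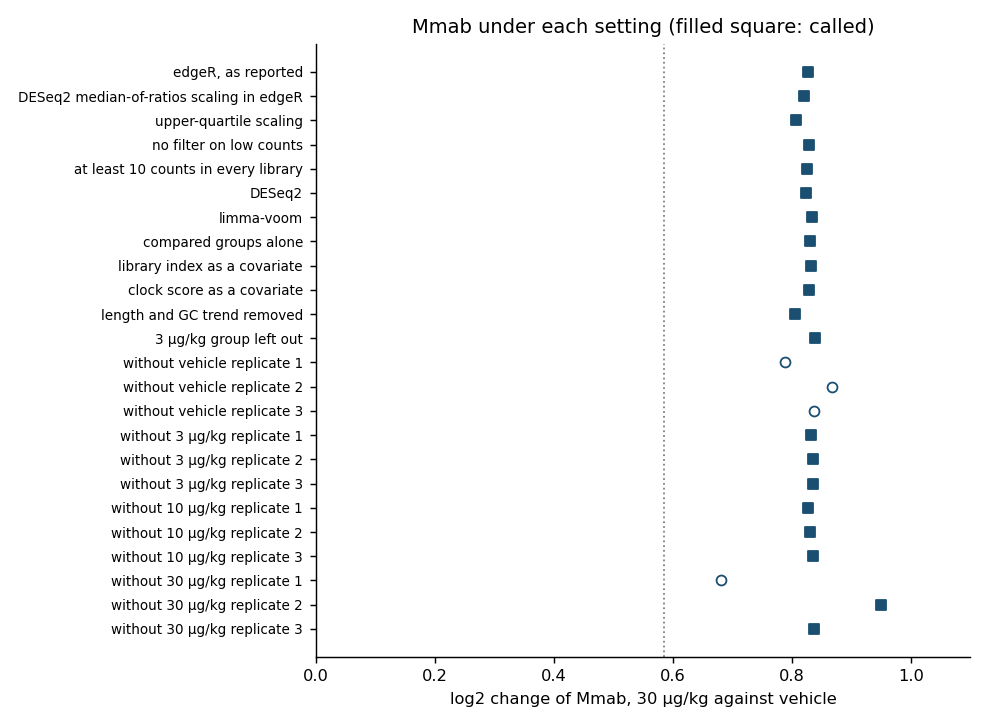
Log2 change of Mmab at 30 µg/kg against vehicle (x axis) under each setting (y axis); filled squares were called, open circles were not, and the dotted line is 1.5-fold. The change lies between 0.68 and 0.95 in every setting, and the 4 open circles are the fits without a vehicle library or without 30 µg/kg replicate 1.

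Values of other kinds also differed between vehicle and 30 µg/kg, among them the summed enterocyte markers given above. Summed Paneth cell markers (5 genes) were 658 to 999 CPM in vehicle, 672.5 to 1691 at 3 µg/kg, 1050 to 1430 at 10 µg/kg and 2071 to 2789 at 30 µg/kg. In the same order, summed proliferation markers (7 genes) were 227 to 267, 194 to 428, 318 to 426 and 288 to 407. Summed T cell markers (5 genes) were 146 to 170, 159 to 213, 196 to 237 and 189 to 225. The highest libraries of the last 2 lists were not at 30 µg/kg. No gene of these 3 lists was at 0 in any library. Summed pancreas markers (5 genes, each at 0 in some library) were lower at 30 µg/kg, 0.274 to 1.16 against 5.25 to 6.43 in vehicle. They were lowest at 3 µg/kg, at 0 to 0.117, and were 1.584 to 1.715 at 10 µg/kg. The share of uniquely placed reads that fell in no gene was 43.5 to 44.95% in vehicle and 39.4 to 41.1% at 30 µg/kg. Their part in the rise of Mmab was not tested. A score of circadian clock genes split the libraries, positive in vehicle replicates 2 and 3, replicate 1 of each TCDD dose and 30 µg/kg replicate 2. Within the positive libraries Mmab was at 6.62 and 6.36 CPM in vehicle and 13.2 and 9.06 at 30 µg/kg, and within the negative ones it was at 5.87 and 11.005. With the score as a covariate, the log2 change at 30 µg/kg was 0.83 (edgeR adjusted p = 0.00826).

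Mut (chr17:40934685-40961988, plus strand), the adenosylcobalamin-dependent mutase, had the tightest replicates, at 34.5, 38.2 and 37.3 CPM in vehicle and 40.2, 35.8 and 37.5 at 3 µg/kg. It stood at 42.2, 39.8 and 41.5 at 10 µg/kg and at 40.7, 41.7 and 38.5 at 30 µg/kg. In scaled CPM, the libraries of 10 and 30 µg/kg all lay above those of vehicle, by a small margin. In TPM, which is not TMM scaled, those of 30 µg/kg overlapped vehicle, at 27.8 ± 0.619 against 28.0 ± 1.53. The log2 changes of 0.04 (95% interval −0.13 to 0.22), 0.17 (−0.01 to 0.34) and 0.13 (−0.04 to 0.31) left 1.5-fold outside the interval at every dose. Mut shares 95 bases of exon, 2.51% of its exon length, with Cenpq on the other strand, and without a stated strand setting reads there cannot be assigned.

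Because both genes were read in the same library, the ratio of Mmab to Mut needs no scaling between libraries. In TPM it was 0.175 to 0.179 in vehicle, 0.163 to 0.284 at 3 µg/kg, 0.225 to 0.271 at 10 µg/kg and 0.224 to 0.335 at 30 µg/kg. The mean ratio thus went from 0.177 in vehicle to 0.285 at 30 µg/kg. It rests on merged exon lengths, not on the lengths of the transcripts present, so it is not a count of transcripts per transcript. The ratio of Mmab to Mmaa was 1.07 ± 0.109 in vehicle and 1.69 ± 0.226 at 30 µg/kg. The share of Mmab in the summed TPM of the 7 genes was 6.34 ± 0.161% and 9.68 ± 1.64%.

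Mtr (chr13:12182712-12258113, minus strand), methionine synthase, stood at 5.75, 5.09 and 6.78 CPM in vehicle, 2.87, 5.14 and 5.75 at 3 µg/kg and 5.04, 5.51 and 5.51 at 10 µg/kg, with 5.62, 5.24 and 6.02 in the 30 µg/kg group. Every dose overlapped vehicle, and replicate 1 of 3 µg/kg was low, at 38 counts. The log2 changes were −0.34 (95% interval −0.82 to 0.13), −0.13 (−0.60 to 0.34) and −0.06 (−0.53 to 0.41). Mtrr (chr13:68560780-68582149, minus strand), the reductase that reactivates MTR, stood at 2.71, 5.55 and 3.63 CPM in vehicle, 2.57, 3.45 and 4.29 at 3 µg/kg and 5.26, 3.77 and 3.49 at 10 µg/kg. The highest dose gave 4.44, 5.15 and 3.50. Its vehicle libraries spanned nearly all of its other values. The log2 changes were −0.21 (−0.83 to 0.42), 0.06 (−0.56 to 0.68) and 0.12 (−0.49 to 0.74), and at each dose the interval reached past 1.5-fold in at least 1 direction, so a change of that size was not excluded by these data.

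**Figure D4:**
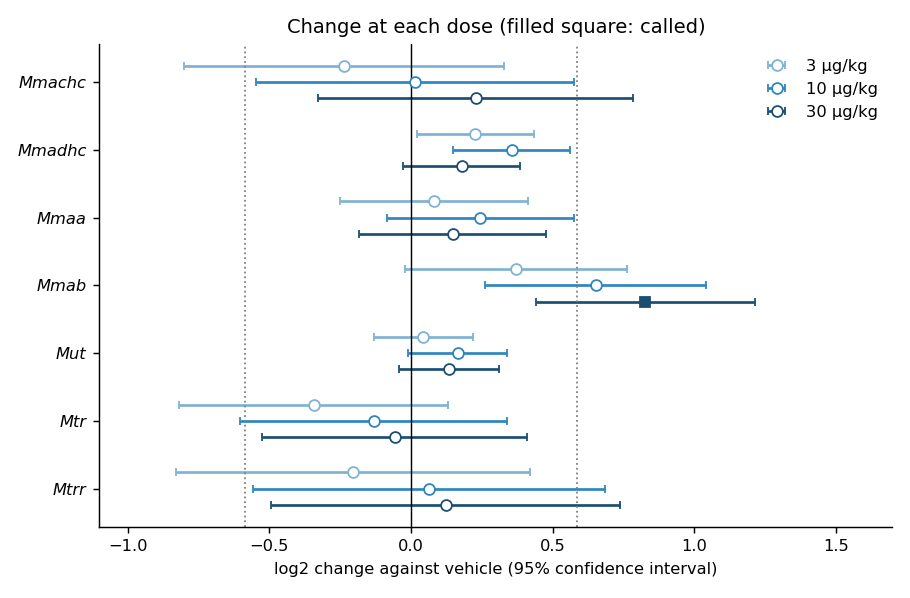
Log2 change of each gene against vehicle at 3, 10 and 30 µg/kg TCDD, with 95% intervals; the filled square was called and dotted lines mark 1.5-fold. Mmab at 30 µg/kg, at 0.83, is the 1 called value; the intervals of Mmachc, Mtr and Mtrr are wide and those of Mut and Mmadhc narrow.

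Counted together, 0 members were called at 3 µg/kg, where 0.228% of all genes were, 0 at 10 µg/kg against 0.613%, and 1 at 30 µg/kg against 3.97%. At an unadjusted p under 0.05 the counts were 1, 2 and 1, against 11.4%, 15.9% and 21.6% of all genes. DESeq2 called 0, 1 and 1 members, Mmab being the member at 10 µg/kg (log2 change 0.65, adjusted p = 0.0458), and limma-voom 0, 0 and 1. The trend over dose called 1 of 7 against 3.29%, and the test of any difference 1 of 7 against 6.78%. One gene of 7 is too few to read against these shares. In scaled CPM, every library was above vehicle for 1 member at 3 µg/kg (8.58% of all genes) and for 3 members at 10 µg/kg (11.9%) and at 30 µg/kg (14.2%), namely Mmadhc alone at 3 µg/kg and Mmadhc, Mmab and Mut at 10 and 30 µg/kg. In TPM the members were 2 at 3 µg/kg (Mmadhc and Mut, 14.8% of all genes with a length), 4 at 10 µg/kg (these and Mmab and Mmaa, 21.3%) and 1 at 30 µg/kg (Mmab, 7.87%). In scaled CPM, every library was below vehicle for 0 members, against 6.84%, 11% and 12.5% of all genes. The change was above 0 for 4, 6 and 6 members. The median log2 change over the 7 genes was 0.04, 0.17 and 0.15, and over all genes 0.00, −0.01 and −0.02.

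Between doses, edgeR called 0 members from 3 to 10 µg/kg (0.158% of all genes), from 10 to 30 µg/kg (2.77%) or from 3 to 30 µg/kg (4.87%), with 0, 0 and 1 at an unadjusted p under 0.05 (3.3%, 21% and 25.6% of all genes). DESeq2 and limma-voom also called 0. The spread between replicates on the log2 scale, pooled over groups, was 0.07 for Mut and 0.09 for Mmadhc, where counting error alone gives 0.06 and 0.07. It was 0.22 for Mmab (0.12 from counting), and 0.29 to 0.37 for Mtr, Mmachc and Mtrr (0.15 to 0.19 from counting), whose lowest libraries held 33 to 38 counts.

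A feature the choice of genes did not use is that 5 of the 7 have a gene on the other strand starting within 1000 bases upstream. The share of all genes with such a neighbour was not counted, so the 5 cannot be read as a trait of these genes. Mmab starts 209 bases from Mvk, which encodes mevalonate kinase of cholesterol synthesis, and a shared start region of this pair that answers to the sterol regulator SREBP2 is known from other mammalian cells. Mmachc starts 103 bases from Ccdc163 and Mtrr 85 bases from Fastkd3, a mitochondrial RNA regulator. The noncoding genes Gm4890 and Gm13483 start 186 bases from Mmaa and 9 bases from Mmadhc. The windows of Mmab and Mvk overlap, so the CCAAT letters printed above lie upstream of both starts.

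Mvk stood at 11, 14.95 and 18.76 CPM in vehicle, 18.04, 15.65 and 12.8 at 3 µg/kg and 18, 22.13 and 19.41 at 10 µg/kg, then 26.55, 16.26 and 19.16 in the group given 30 µg/kg. The groups overlapped at every dose. Mvk was not called, with log2 changes of 0.05 (SE 0.21), 0.41 (SE 0.21) and 0.48 (SE 0.21, edgeR adjusted p = 0.211), and 0.54 over the dose range (SE 0.19, adjusted p = 0.139). Ccdc163 and Fastkd3 had log2 changes between −0.23 and 0.12 at the 3 doses and were not called. Gm4890 had 5 to 30 counts per library and was not called, and Gm13483 had 0 to 4 and was not tested.

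The list of 16 sterol synthesis genes and SREBP2 targets, which includes Mvk, was set beside this pair. By edgeR 0 of 16 were called at 3, 10 or 30 µg/kg. At an unadjusted p under 0.05 there were 5, 11 and 8, against 11.4%, 15.9% and 21.6% of all genes. DESeq2 called 1, 4 and 0 of the list, and limma-voom called 0 at each dose. Without the filter on low counts, edgeR called 0, 2 and 1. Log2 changes were above 0 for 15, 15 and 16 of the 16, where 50.3%, 48.6% and 47.8% of all genes were. The list's medians were 0.26, 0.49 and 0.42. At 30 µg/kg the synthesis enzymes, in order of the pathway, had log2 changes of 0.42 for Hmgcs1, 0.51 for Pmvk, 0.58 for Mvd, 0.18 for Idi1 and 0.69 for Fdps. The later enzymes Fdft1, Sqle, Lss and Cyp51 stood at 0.54, 0.46, 0.21 and 0.41, and Dhcr7, the last enzyme of cholesterol synthesis, at 0.03. The regulators Srebf2 and Insig1 stood at 0.24 and 0.36. Whether these values and the rise of Mmab share a source was not tested.

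**Figure D5:**
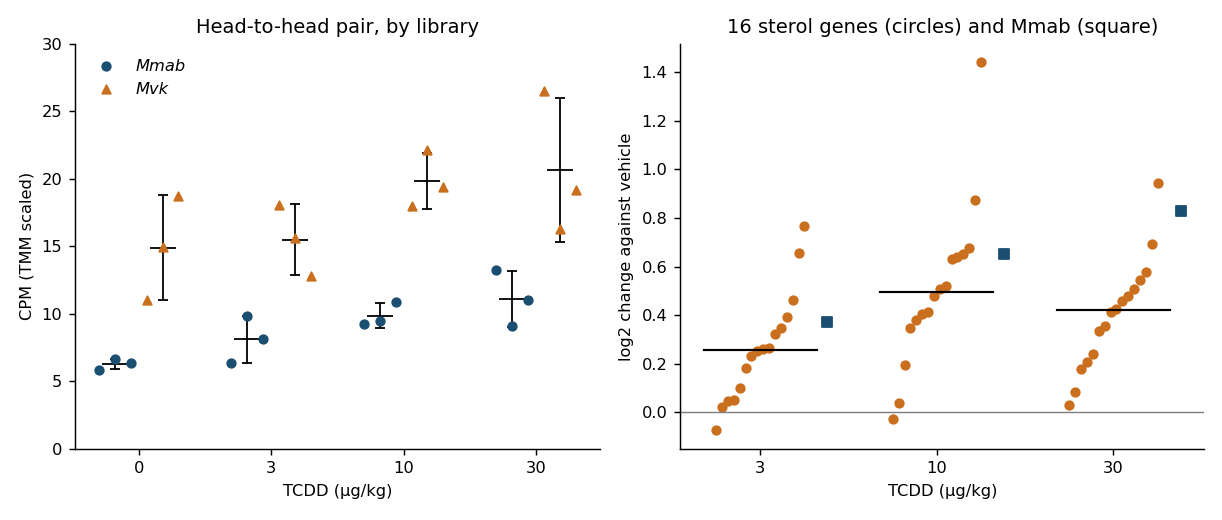
Left, CPM of Mmab (circles) and Mvk (triangles) in each library by TCDD dose, with mean ± SD. Right, log2 change against vehicle of 16 sterol genes (circles, in rank order, with their median as a line) and of Mmab (square); the medians are 0.26, 0.49 and 0.42, and Mvk overlaps between groups where Mmab does not at 10 and 30 µg/kg.

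Upstream of these genes, 7 of 8 listed genes of Cbl uptake and lysosomal release were tested, Lrp2 being too low. None was called by edgeR or DESeq2 at 3, 10 or 30 µg/kg, and limma-voom called 1, Cubn, at 30 µg/kg. At an unadjusted p under 0.05 by edgeR there were 2, 3 and 1 of 7, against 11.4%, 15.9% and 21.6% of all genes. The call of Cubn at single doses depended on the setting. At 30 µg/kg its log2 change was −2.08 (edgeR adjusted p = 0.0622), and edgeR called it with no filter on low counts, with those groups fitted alone, with the library index or the clock score as a covariate (adjusted p = 0.0133 and 0.000292) and with the 3 µg/kg group left out. At 10 µg/kg it was −1.75 (adjusted p = 0.193) and was called with no filter and with the clock score. Cubn, the receptor for Cbl bound to intrinsic factor, fell by 2.23 on the log2 scale over the dose range (SE 0.53, edgeR adjusted p = 0.0274) and was 1249 ± 180 CPM in vehicle and 295 ± 120 at 30 µg/kg. The lysosomal exporters Lmbrd1 and Abcd4, which hand Cbl to Mmachc, had log2 changes of −0.20 (SE 0.10) and −0.23 (SE 0.11) at 30 µg/kg. The list's median was −0.32, −0.17 and −0.20.

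Around the mutase, a list of 7 genes was tested whole. It holds Pcca, Pccb and Mcee, which act between propionyl-CoA and MUT, the succinyl-CoA ligase genes Suclg1, Suclg2 and Sucla2, which act on the product of MUT, and Clybl, a mitochondrial citramalyl-CoA lyase. None of the 7 was called by edgeR at 3, 10 or 30 µg/kg, and DESeq2 and limma-voom also called 0. At an unadjusted p under 0.05 by edgeR there were 3, 5 and 2 of 7, against 11.4%, 15.9% and 21.6% of all genes. The median over all 7 was 0.25, 0.28 and 0.16. Of the 3 genes before MUT, Pcca and Pccb, the carboxylase subunits, had log2 differences of 0.32 (SE 0.14) and −0.25 (SE 0.12) at 30 µg/kg. Mcee, the epimerase just before MUT, had one of 0.26 (SE 0.19). At 3 and 10 µg/kg the differences were 0.45 and 0.48 for Pcca, 0.10 and −0.03 for Pccb, and 0.38 and 0.41 for Mcee. These genes of the route were named after their values were seen.

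Around methionine synthase, 10 of 11 listed genes of the methionine and folate cycle were tested, Bhmt being too low at 0 to 7 counts. Cbs, which draws homocysteine towards cysteine, was the 1 gene called, at 10 µg/kg (log2 change 3.47, SE 0.61, edgeR adjusted p = 0.0218). Its fitted change depends on the prior count because it rested on few reads, with 2, 1 and 2 counts in vehicle, 1, 4 and 6 at 3 µg/kg and 13, 17 and 15 at 10 µg/kg, with 2, 0 and 0 in the 30 µg/kg group. With the library index as a covariate it was not called (log2 change 3.47, edgeR adjusted p = 0.0779), and a filter of at least 10 counts in every library left it untested. The list's median change was 0.18, 0.22 and 0.30. At an unadjusted p under 0.05 by edgeR there were 0, 1 and 2 of 10 genes, against 11.4%, 15.9% and 21.6% of all genes.

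The genes whose log2 CPM most resembled that of each member over the 12 libraries were listed among 9966 genes with a mean of at least 5 CPM. For Mmab they were Eef1g (Pearson 0.953), Hmgb1 (0.947) and Mrps15 (0.938), and Mvk was not among the first 3. For Mut they were Kdelr2 (0.921), Atp2a3 and Sar1b, and for Mmaa Kdelr2 (0.806), Map2k3 and Rybp. For Mmadhc they were Psmd6 (0.920), Ppa1 and Psmc3, for Mmachc Slc17a5 (0.851), Pxmp4 and Anapc7, for Mtr Rcc2 (0.916), Xrcc1 and Ywhag, and for Mtrr Ifrd2 (0.904), Zfp275 and Zan. Between members, the highest value was 0.732 for Mmaa with Mut and the lowest −0.543 for Mmaa with Mtr, and Mmab with Mut had 0.485. These correlations describe 12 libraries that share dose, depth and composition.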

How the data were processed

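Per the labels, total RNA from 12 scrapings was made into libraries with a commercial mouse kit and an added DNase step. The authors deposited raw counts of reads per Ensembl gene, 1 file per library, with no normalisation. The submitters' processing notes name FastQC 0.11.3, Trimmomatic 0.33, TopHat2 2.1.0, SAMtools 1.2.0, HTSeq 0.6.1, DESeq and GRCm38. The annotation release and strand setting are not given in the sources used here. Reads in no gene (39.4 to 44.95% of uniquely placed reads), ambiguous or multiply placed were left out.

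Counts were analysed with edgeR 4.0.16 (quasi-likelihood test, TMM scaling, filterByExpr, 4 groups in 1 model) in R 4.3.3, with Benjamini-Hochberg adjustment over 15823 genes. DESeq2 1.42.0 and limma 3.58.1 (voom) were run beside it. Log2 CPM used a prior count of 2. The trend used dose rank. Scripts were tested on simulated data. The study's own empirical Bayes call was not rebuilt. Replicates were numbered in accession order. No pair of replicates agreed within counting error (chi-square per gene 10.7 to 48.1).

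Named were all 7 members, Cyp1a1, head-to-head neighbours, list genes called at a dose or for the trend, the sterol list and the 3 most alike genes per member. Single values of some genes of the sterol list are not reported here, and its counts and medians cover the whole list. Others were named after their values were seen. The members and lists were chosen with earlier results of these data known. Positions and exon lengths are those of GENCODE M21 (GRCm38), and promoters are RefSeq's (GRCm38.p6).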

Additional observations from a re-analysis of the deposited data

How the results depend on the processing

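The call of Mmab at 30 µg/kg, the absence of calls at 3 µg/kg and between doses, and the 0 members in the exact dose order test kept their counts under every alternative of scaling, filter, tool, covariate and groups that was run. Leaving out 1 library at a time moved the count of members called at 30 µg/kg and over the dose range between 0 and 1, as given above for Mmab, and it left the counts at 3 and 10 µg/kg and between doses at 0. The count at 10 µg/kg became 1 with DESeq2. The count for any difference became 0 with upper-quartile scaling, the library index as a covariate, or the length and GC trend removed (edgeR adjusted p of Mmab 0.0546, 0.105 and 0.0566), and lay between 0 and 1 without single libraries (0.0210 to 0.114). The cause was not tested.

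Changes of opposite sign arose for values near 0 that were never called. The log2 change of Mmachc at 10 µg/kg became −0.012 with upper-quartile scaling, −0.086 with the clock score and −0.022 with length and GC removed. That of Mtr over the dose range became 0.00283 without a filter, 0.000865 with at least 10 counts in every library, 0.025 with limma-voom, 0.0099 with the library index and 0.075 with length and GC removed. With length and GC removed, Mtr at 30 µg/kg became 0.015 and Mut at 3 µg/kg became −0.028. Without single libraries, the log2 change ran from −0.069 to 0.18 for Mmaa at 3 µg/kg, from −0.15 to 0.22 for Mmachc at 10 µg/kg and from −0.010 to 0.083 for Mut at 3 µg/kg. It ran from −0.15 to 0.060 for Mtr at 30 µg/kg and from −0.067 to 0.16 over the dose range. For Mtrr it ran from −0.42 to 0.11, from −0.13 to 0.40 and from −0.078 to 0.45 at 3, 10 and 30 µg/kg.

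No paired analysis was possible because no label numbers the replicates or ties animals across doses. The library index, which recurs once per dose, was fitted as a covariate and so acts as a block on the index. It kept the calls of Mmab at 30 µg/kg and over the dose range, lost that for any difference, as given above, and changed the calls of Cubn at 30 µg/kg and Cbs at 10 µg/kg. Deviations from group means, over all genes tested, were correlated between libraries. The correlation was above 0.1 in 5 of 18 pairs of the same index and in 18 of 36 pairs of unlike index. The clock score differed in sign within each index, so these counts do not isolate the index, and its effect was not tested by them. For Mmachc, Mtr and Mtrr, counting error alone gives 0.15 to 0.19 on the log2 scale, against a spread of 0.29 to 0.37 between replicates, and the source of the rest was not tested. With 3 libraries per group, the smallest exact p of a comparison of 2 groups is above 0.05, so single comparisons rest on the model across genes.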
